A study of Mus musculus with 12 samples.

Results

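The mRNAs described here encode mouse zinc finger proteins that carry a number in place of a name, the genes Zfp followed by digits and at most 1 letter. Such a gene was counted as a member when it reached 1 CPM (its count divided by the library total, on the usual CPM scale) in at least 3 of the 12 libraries, so its measured level chose it. Of the 400 numbered Zfp genes in the count file, 286 met the rule, among 12224 genes of any name that did so out of 55376. The other 114 are accounted for by 54 with 0 counts in every library, 42 with counts but never 1 CPM, and 18 that reached 1 CPM in 1 or 2 libraries. Just inside the threshold lay Zfp667, Zfp964 and Zfp953, whose level in the library ranked 3 from the top stood at 1.00, 1.05 and 1.10 CPM, and just outside it Zfp382, Zfp169 and Zfp971, at 0.967, 0.933 and 0.933 CPM. Members at 1 CPM in all 12 libraries numbered 234, and 5 passed only through libraries of 1 pool or of 1 genotype.

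The cells were 4T1, a mouse mammary gland cancer line, in which the endogenous METTL7A1 is virtually absent. They had been stably transfected either with an empty vector (mock) or with a CMV plasmid for FLAG-tagged METTL7A1, a putative methyltransferase, and were kept under G418. Both kinds of cells received cycloheximide, which stalls ribosomes on their mRNA, at 0.1 mg/ml for 5 min before lysis and sucrose gradient centrifugation. RNA of fractions 3 to 7 (ribosomal subunits and single ribosomes) formed the sub-polysomal pool and RNA of fractions 8 to 11 the polysomal pool, with 3 libraries in each of the 4 groups: A, B and C in mock cells and D, E and F in METTL7A1 cells. Whether each genotype was 1 clone or a mixed population is not given in the sources used here.

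A zinc finger of the C2H2 type is a short loop held around a zinc ion by a pair of cysteines and a pair of histidines, and a row of such fingers reads a DNA sequence base by base. In mammals many of these proteins also carry a KRAB domain at their start, which recruits the corepressor TRIM28 and, through it, the histone methyltransferase SETDB1, and much of this large and fast-evolving family silences transposable elements. The name Zfp is historical, however, so the set also holds proteins that bind mRNA, mark stalled ribosomes or assemble ribosomal subunits. An mRNA is found deep in the gradient when many ribosomes are on it at once, which depends both on how often translation starts and on how long the coding sequence is.

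The sequences of a few members show what the family shares and where it differs. Zfp706, the most abundant member, has the shortest coding sequence of the 283 members for which a coding sequence was annotated, 231 bases, shown whole with its start and stop codons in capitals. It is spliced from exons of the gene at chr15:36997027-37007773, minus strand, in the GRCm38 build.
Zfp706: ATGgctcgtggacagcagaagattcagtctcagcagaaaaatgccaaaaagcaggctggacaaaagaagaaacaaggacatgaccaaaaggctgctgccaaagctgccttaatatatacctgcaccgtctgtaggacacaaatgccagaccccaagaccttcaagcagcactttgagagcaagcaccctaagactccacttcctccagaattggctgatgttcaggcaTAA
For 4 members whose pool or genotype values are given further on, 1 finger with the linker that follows it is shown, 78 bases each, with the codons of its 2 cysteines and 2 histidines in capitals. In GRCm38 they lie, all on the minus strand and within the coding sequence, at chr7:30162319-30162396 (Zfp146), chr9:20348647-20348724 (Zfp560), chr17:32775456-32775533 (Zfp871) and chr7:6132888-6132965 (Zfp787).
Zfp146: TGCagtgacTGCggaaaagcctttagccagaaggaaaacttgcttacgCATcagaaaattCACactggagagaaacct
Zfp560: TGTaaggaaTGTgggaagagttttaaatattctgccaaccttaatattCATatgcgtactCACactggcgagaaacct
Zfp871: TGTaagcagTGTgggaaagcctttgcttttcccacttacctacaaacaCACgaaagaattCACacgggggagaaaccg
Zfp787: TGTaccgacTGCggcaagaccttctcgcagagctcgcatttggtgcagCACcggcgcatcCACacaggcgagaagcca
Any pair of these 4 stretches was identical at between 51.3% and 61.5% of the bases, while their GC content ran from 38.5% in Zfp560 to 61.5% in Zfp787. The same protein motif was thus written with very different base composition.

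Library totals lay between 1817520 and 6966156 counts, the lowest being mock sub-polysomal A, so 3 counts correspond to between 0.431 and 1.65 CPM. Counts of Mettl7a1 itself ranged from 4 to 24 without and from 989 to 2436 with the METTL7A1 vector. All 5 epithelial markers examined were present, with a summed level of 1551 to 4743 CPM. Of 4 fibroblast markers only Pdgfra reached the threshold (Col1a2 was at 0, the summed level was 0.871 to 7.37 CPM), of 4 leukocyte markers only Cd68 (Lyz2 and Cd3e were at 0, 5.70 to 25.5 CPM), and of 2 endothelial markers none. CPM in what follows were scaled with TMM factors, which balance the libraries on the bulk of their genes. Changes are log2 differences fitted by edgeR on all 12 libraries, with p-values adjusted over the 12224 genes. A gene was called when its adjusted p-value was below 0.01 and its change exceeded 1.5 either way, and a second count at an adjusted p-value below 0.05 had no limit on size. The labels do not say whether replicates were separate cultures. The study describes the gradients of these cells as independent fractionations of biological replicates, without tying them to single libraries, and the p-values measure the spread between these samples.

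As a group the numbered Zfp mRNAs were scarce. Their mean over the 12 libraries had a median of 7.36 CPM (quartiles 3.26 and 16), against 22.6 CPM over all tested genes, and together they took 0.347% to 0.530% of the counts of a library. These levels describe a set that a level had chosen and were not tested. Most members are mRNAs of middling length with a coding sequence that repeats the finger many times. The principal transcript of a member had a median of 3477 nt against 2787 nt over all tested genes, the coding sequence 1719 against 1377 nt and the 3′ UTR 1352 against 1016 nt. Median GC content was 45.6% against 50.4%, and at the third codon position 50.3% against 60.4%. The members had a median of 10 matches to the pattern used for C2H2 fingers, between 0 and 33. The 10 without a match were Zfp36, Zfp125, Zfp185, Zfp330, Zfp451, Zfp469, Zfp503, Zfp703, Zfp839 and Zfp939, of which Zfp125, Zfp469 and Zfp939 had no annotated coding sequence to search. A finger of another spacing would not have matched, so the lack of a match does not mean that a protein has no finger. Chromosomes 7 (72 members), 17 (38) and 13 (27) held the most. Repeated fingers make these genes alike: 31 members shared over 20% of their 50-base windows with transcripts of another gene, and 130 shared none.

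The 5 members highest in mean CPM were of different kinds. Zfp706, a small protein with 1 finger, averaged 477 CPM, or 97.6 CPM per kb of exon. Zfp207 (BuGZ, a spindle and kinetochore protein) averaged 183 CPM and 39.1 per kb, and Zfp91, a ubiquitin ligase, 116 CPM and 21 per kb. Zfp664 followed with 98.9 CPM and 24.2 per kb, and Zfp106, an RNA-binding protein, with 93 CPM and 9.84 per kb. Per kb of exon the order of Zfp91 and Zfp664 was the opposite of that in CPM, and Zfp106, whose exons span 9453 nt, was the lowest of the 5.

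The first comparison asks where on the gradient these mRNAs were found, by setting the polysomal against the sub-polysomal pool within each genotype. In mock cells 1 member rose and 5 fell past the call threshold, 6 in all or 2.1% of the 286, where 7.55% of all tested genes were called (0.687% higher and 6.86% lower). At an adjusted p-value below 0.05, 37 were higher and 50 lower in the polysomal pool, together 30.4% against 47.0% of all tested genes (23.3% higher, 23.7% lower). In METTL7A1 cells 3 rose and 13 fell, 16 in all or 5.59%, where 12.1% of all tested genes were called (1.76% higher, 10.3% lower), and below 0.05 there were 50 higher and 61 lower, 38.8% against 59.3% (30.0% higher, 29.3% lower). The members' shares lay below those of all tested genes, and by level this was so in each range except that of 20 CPM or more in METTL7A1 cells. Among the 55 members at 20 CPM or more, 54.5% in mock and 76.4% in METTL7A1 cells passed 0.05, against 56.6% and 69.4% of all tested genes at that level. From 5 to 20 CPM the shares of 112 members were 38.4% and 44.6%, against 43.8% and 56.7%. From 2 to 5 CPM those of 78 members were 14.1% and 17.9%, against 33.7% and 43.2%, and among the 41 members below 2 CPM they were 7.32% and 12.2%, against 23.3% and 34.3%. The median change of the members was -0.13 in mock and -0.06 in METTL7A1 cells, below the 0.05 and 0.06 of all tested genes, but its sign depended on the scaling: with library totals in place of TMM it was 0.27 and 0.41, where all tested genes had medians of 0.46 and 0.53, and with scaling to the Actb count it was -0.21 and -0.30, against -0.02 and -0.18. With library totals the split below 0.05 was 82 higher and 15 lower in mock and 98 and 37 in METTL7A1 cells, and with Actb 25 and 47, and 19 and 81. The splits thus moved with the scaling, as did the medians of all tested genes, and no share of all tested genes was set beside them.

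Zfp146 (chr7:30161269-30169727, minus strand), whose protein consists almost wholly of fingers, was the member called higher in polysomes of both genotypes. In mock cells it measured 25.9, 14.5 and 12.8 CPM in the sub-polysomal libraries and 46.2, 45 and 51.7 CPM in the polysomal ones. In METTL7A1 cells the values were 9.27, 8.68 and 6.21 against 30.5, 28.9 and 31.6 CPM. The pools did not overlap in either genotype, and Zfp146 was 2.89-fold higher in polysomes of mock cells (log2 change 1.53, SE 0.20, edgeR adjusted p = 7.15e-06) and 3.80-fold in METTL7A1 cells (log2 change 1.93, SE 0.22, edgeR adjusted p = 7.15e-07). Its transcript has 2029 nt, fewer than that of the median member. Zfp106 (chr2:120506820-120563807, minus strand), with a coding sequence of 5667 nt, measured 71, 41.8 and 49.5 against 148, 126 and 121 CPM in mock and 51.7, 38.7 and 45.1 against 141, 144 and 139 CPM in METTL7A1 cells. Here too no sub-polysomal library reached a polysomal one; the change was 1.31 (SE 0.17, edgeR adjusted p = 7.57e-06) in mock cells and 1.65 (SE 0.17, edgeR adjusted p = 2.92e-07) in METTL7A1 cells, of which only the latter passed the size limit. Zfp871 (chr17:32765496-32788287, minus strand), a KRAB protein with a transcript of 10851 nt, measured 3.64, 8.68 and 6.69 against 27.4, 25.8 and 28.9 CPM in METTL7A1 cells (log2 change 2.06, SE 0.28, edgeR adjusted p = 3.21e-06). In mock cells its pools overlapped through sub-polysomal library A, with 15.2, 6.29 and 8.67 against 24.1, 19.6 and 14.9 CPM (log2 change 1.06, SE 0.27, edgeR adjusted p = 0.003).

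On the sub-polysomal side stood Zfp36 (chr7:28376784-28380253, minus strand), which encodes tristetraprolin, a protein with CCCH fingers that binds AU-rich elements and sends short-lived mRNAs to decay. Its 3 sub-polysomal libraries measured 27.6, 63.2 and 53 CPM in mock cells, its polysomal libraries 6.55, 12.9 and 14.6 CPM. The METTL7A1 values were 88.8, 73.1 and 75 against 16.6, 16.3 and 22 CPM. Every sub-polysomal library exceeded every polysomal one, and the fall was of the same size in both genotypes, -2.11 (SE 0.26, edgeR adjusted p = 5.82e-06) and -2.11 (SE 0.25, edgeR adjusted p = 1.26e-06). Zfp414 (chr17:33629090-33631779, plus strand) measured 16.9, 32.7 and 21.9 against 4.36, 7.00 and 6.57 CPM in mock cells and 36.8, 42.4 and 43 against 5.75, 8.46 and 6.73 CPM in METTL7A1 cells. Again the pools were apart in both genotypes, with changes of -2.02 (SE 0.23, edgeR adjusted p = 2.47e-06) and -2.54 (SE 0.22, edgeR adjusted p = 5.59e-08). Of its windows, 25% are also found in another gene, mostly Gm20507, so its counts may be shared. Zfp787 (chr7:6131491-6155997, minus strand), the GC-rich member shown above, measured 19.7, 38 and 22.3 against 7.36, 10.2 and 9.42 CPM in mock and 34.8, 34.5 and 26.5 against 9.44, 11.5 and 10.8 CPM in METTL7A1 cells. The polysomal libraries were the lower ones throughout, with changes of -1.58 ± 0.22 and -1.58 ± 0.21 (log2 change ± SE, edgeR adjusted p = 1.58e-05 and 4.67e-06). With offsets for each library's trend with GC content they were -1.14 and -0.64 (edgeR adjusted p = 2.47e-05 and 0.00237), under the size limit in both.

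Zfp560 (chr9:20345136-20385177, minus strand) fell too, though long and poor in GC. It encodes a KRAB protein of 15 fingers with a coding sequence of 2265 nt and a GC content of 40.2%, and shares no window with another gene. Its libraries measured 31.6, 34.6 and 32.5 CPM in the sub-polysomal and 8.87, 11.9 and 13 CPM in the polysomal pool of mock cells. In METTL7A1 cells they measured 47.7, 52.8 and 54.5 and 10.1, 11.2 and 12.6 CPM. The replicates lay close together and the pools far apart, -1.54 (SE 0.16, edgeR adjusted p = 1.01e-06) in mock cells and -2.20 (SE 0.16, edgeR adjusted p = 2.49e-08) in METTL7A1 cells, and with offsets for each library's trend with GC content the changes were -1.58 and -2.39. Zfp688, a short KRAB protein gene with 2 fingers, measured 15.2, 12.6 and 11.5 against 1.92, 2.44 and 1.68 CPM in METTL7A1 cells (log2 change -2.66, SE 0.32, edgeR adjusted p = 7.15e-07) and 6.20, 13.8 and 10.8 against 3.27, 3.02 and 5.45 CPM in mock cells (log2 change -1.44, SE 0.28, edgeR adjusted p = 0.000365). Its pools did not overlap in either genotype. At low levels were Zfp691, 2.82, 5.66 and 3.75 against 0.818, 2.20 and 1.12 CPM in mock cells (log2 change -1.59, SE 0.40, edgeR adjusted p = 0.00271), and Zfp931, 2.65, 8.43 and 13.9 against 1.09, 1.67 and 3.53 CPM in METTL7A1 cells (log2 change -2.08, SE 0.51, edgeR adjusted p = 0.00152). The pools of Zfp931 overlapped, and 49.4% of its windows lie also in other genes. The remaining called members, all lower in the polysomal pool of METTL7A1 cells, were Zfp296, Zfp358, Zfp524, Zfp580, Zfp771 and Zfp939, with log2 changes between -2.06 and -1.55.

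**Figure D1:**
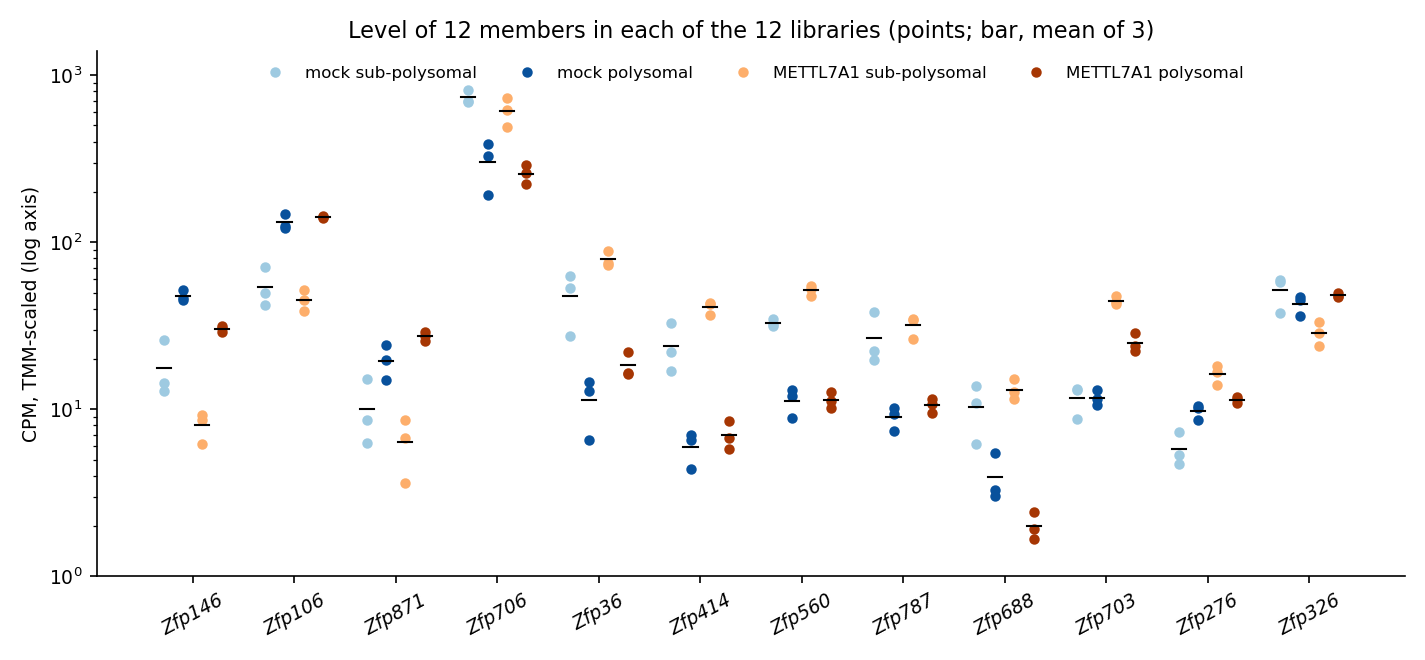
TMM-scaled CPM (log axis) of 12 named members in each of the 12 libraries, grouped by genotype and pool, with 1 point per library and a bar at the group mean. Zfp146 and Zfp106 lie higher and Zfp706, Zfp36, Zfp414, Zfp560 and Zfp787 lower in the polysomal pool of both genotypes without overlap, while Zfp703 and Zfp276 lie higher in the sub-polysomal pool of METTL7A1 than of mock cells.

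All 6 members called in mock cells were called in METTL7A1 cells in the same direction. Below 0.05 in both genotypes there were 61 members with 1 direction (27 higher, 34 lower in polysomes) and 1 with opposite directions. Those with 1 direction made up 21.3% of the members, against 39.5% of all tested genes (19.0% higher, 20.5% lower). The member with opposite directions was Zfp276, which was higher in polysomes of mock cells (log2 change 0.83, SE 0.22, edgeR adjusted p = 0.00421) and lower in those of METTL7A1 cells (log2 change -0.50, SE 0.17, edgeR adjusted p = 0.0194, and a change of 0.01 with offsets for the trend of each library with GC content). The libraries of the 2 comparisons were different, and Spearman's correlation of the change in mock with that in METTL7A1 cells was 0.732 across the 286 members and 0.841 across all tested genes, as a description across genes.

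**Figure D2:**
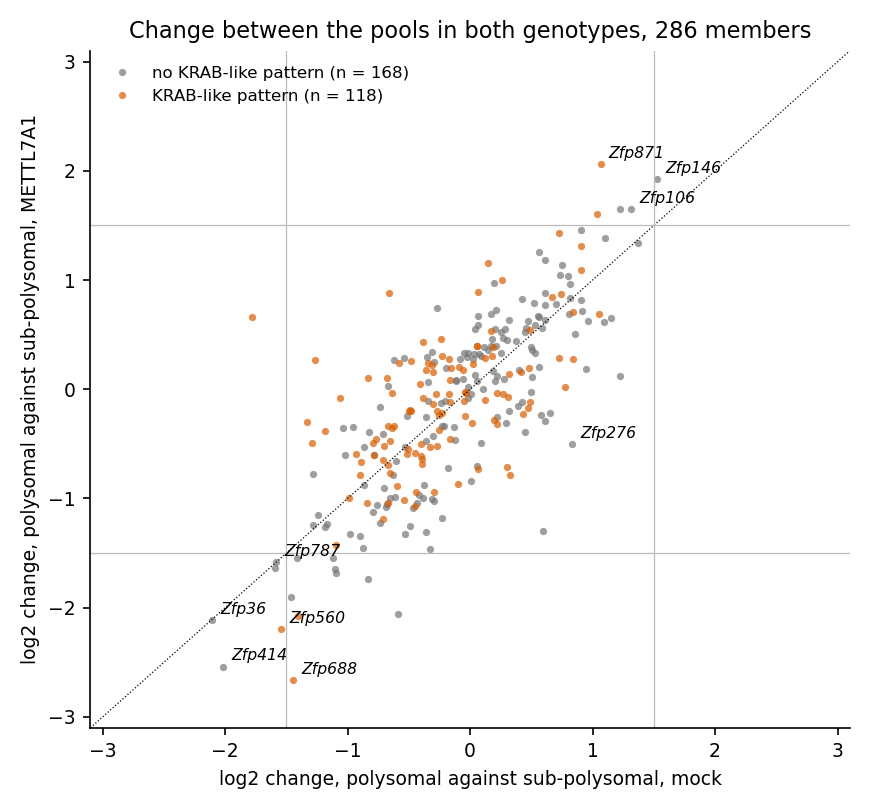
Log2 difference of polysomal minus sub-polysomal pool in mock cells (horizontal axis) and in METTL7A1 cells (vertical axis), 1 point per member, coloured by whether a KRAB-like stretch was found, with lines at 1.5 either way. The points follow the diagonal, with Zfp146 at 1.53 and 1.93 towards one end. Zfp36 and Zfp414 lie towards the other, at -2.11 and -2.54 in METTL7A1 cells. On the vertical axis Zfp871 lies above Zfp146 and Zfp688 below Zfp414. The zero of both axes is that of TMM scaling and moves with the scaling.

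By role, the RNA-binding members did not share a direction. Among 6 mRNA decay and RNA binding members, 1 was higher and 2 lower in polysomes of mock cells, and 3 and 3 of METTL7A1 cells, at an adjusted p-value below 0.05. Beside Zfp36 and Zfp106, Zfp326, a factor in transcription and splicing, rose in polysomes of METTL7A1 cells by 0.75 (SE 0.18, edgeR adjusted p = 0.00142), with -0.27 (SE 0.17, edgeR adjusted p = 0.207) in mock cells. Zfp638 rose by 0.67 (SE 0.20, edgeR adjusted p = 0.00741) in METTL7A1 cells, and Zfp346, which binds double-stranded RNA, had -0.47 (SE 0.18, edgeR adjusted p = 0.0302). Zfp385a, at 3.73 CPM the scarcest of the 6, fell in both genotypes, with log2 changes of -0.98 ± 0.30 and -1.32 ± 0.29. With the GC offsets its changes were -0.57 and -0.40 and passed in neither (edgeR adjusted p = 0.126 and 0.247), while in mock cells Zfp326 at -0.36 and Zfp346 at -0.38 then passed (edgeR adjusted p = 0.0328 and 0.046).

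Of 3 members that act on the ribosome, 2 were lower in polysomes of both genotypes. Zfp598, the ubiquitin ligase that marks collided ribosomes, fell, with log2 changes of -0.65 (SE 0.15, edgeR adjusted p = 0.00201) in mock and -0.99 (SE 0.15, edgeR adjusted p = 2.22e-05) in METTL7A1 cells. Zfp593, which accompanies the large subunit during its maturation, has a coding sequence of only 405 nt and fell, with -0.53 (SE 0.16, edgeR adjusted p = 0.00959) and -1.32 (SE 0.15, edgeR adjusted p = 9.57e-07). Zfp622, another factor in maturation of the large subunit, went the other way in METTL7A1 cells, 0.55 (SE 0.14, edgeR adjusted p = 0.00192), and had 0.21 (SE 0.14, edgeR adjusted p = 0.231) in mock cells. With library totals in place of TMM, the count in mock cells was 1 higher and 0 lower instead of 0 and 2.

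Both ligases of the ubiquitin and SUMO pathways, Zfp91 and Zfp451, were higher in polysomes of METTL7A1 cells, by 0.36 ± 0.14 and 0.73 ± 0.19 (edgeR adjusted p = 0.035 and 0.00287), though neither passed 0.05 when scaled to Actb. Neither passed in mock cells, at 0.15 ± 0.14 and 0.21 ± 0.19. Of the spindle and cell cycle members, Zfp207 was higher in polysomes of both genotypes, by 0.59 (SE 0.16, edgeR adjusted p = 0.00516) and 0.56 (SE 0.16, edgeR adjusted p = 0.00504), and Zfp830 was lower in mock cells, with a log2 change of -1.04 (SE 0.18, edgeR adjusted p = 0.000165), with -0.35 (SE 0.18, edgeR adjusted p = 0.103) in METTL7A1 cells. Zfp185 at 1.19 CPM passed in neither. In METTL7A1 cells 2 of these no longer passed 0.05 with the GC offsets, Zfp91 (0.18, edgeR adjusted p = 0.239) and Zfp207 (0.34, edgeR adjusted p = 0.0535), and with them Zfp830 passed (-0.53, edgeR adjusted p = 0.0128). Zfp706 fell in both genotypes: mock cells had 694, 701 and 818 against 193, 389.6 and 327 CPM and METTL7A1 cells 489, 618 and 726 against 224, 259 and 290.2 CPM. Its pools did not overlap, and the changes were -1.28 (SE 0.21, edgeR adjusted p = 8.8e-05) and -1.25 (SE 0.21, edgeR adjusted p = 6.69e-05).

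The KRAB proteins known for imprints and retroelements went both ways. Zfp445, which maintains imprints, rose in polysomes by 0.91 (SE 0.17, edgeR adjusted p = 0.00033) in mock and 1.31 (SE 0.18, edgeR adjusted p = 6.85e-06) in METTL7A1 cells. Zfp568, a repressor of the placental Igf2 transcript, rose by 0.91 (SE 0.24, edgeR adjusted p = 0.00344) and 1.09 (SE 0.22, edgeR adjusted p = 0.000228). In contrast, Zfp961, which binds endogenous retroviral sequence, fell, with log2 changes of -0.71 (SE 0.21, edgeR adjusted p = 0.00997) and -0.64 (SE 0.23, edgeR adjusted p = 0.0197). Zfp809, which silences proviruses, fell in mock cells, -0.70 (SE 0.28, edgeR adjusted p = 0.0487), and Zfp932 in METTL7A1 cells, -0.77 (SE 0.31, edgeR adjusted p = 0.0419); their other comparisons gave -0.52 ± 0.29 and -0.65 ± 0.32. Zfp57, which protects imprints in the early embryo, averaged 1.88 CPM and passed in neither. Of 6 tested members of this list, 2 were thus higher and 2 lower in each genotype. With library totals 2 were higher and 0 lower, and with the GC offsets 2 were higher and 3 lower, as Zfp809 and Zfp932 then passed in both.

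Among 11 tested activators and repressors without KRAB, mock cells had 3 higher and 1 lower and METTL7A1 cells 4 and 2; with scaling to Actb the counts were 0 and 1, and 1 and 3. Zfp64 fell in both, with log2 changes of -0.76 (SE 0.16, edgeR adjusted p = 0.000847) and -1.06 (SE 0.16, edgeR adjusted p = 1.67e-05). Zfp462 rose in both, by 0.61 (SE 0.25, edgeR adjusted p = 0.0466) and 1.18 (SE 0.27, edgeR adjusted p = 0.000651). Zfp217, which is amplified in breast cancers, rose in METTL7A1 cells, 0.82 (SE 0.21, edgeR adjusted p = 0.0023), as did Zfp143, an activator at promoters, 0.69 (SE 0.19, edgeR adjusted p = 0.00453), and Zfp410, the activator of Chd4, 0.39 (SE 0.15, edgeR adjusted p = 0.0284). Zfp148 and Zfp516 rose in mock cells, by 0.51 ± 0.21 and 0.85 ± 0.33 (edgeR adjusted p = 0.0487 and 0.0384), and had 0.36 ± 0.20 and 0.51 ± 0.30 in METTL7A1 cells. Zfp703 fell in METTL7A1 cells and is taken up with the genotypes. Zfp131, Zfp281 and Zfp335 passed in neither genotype. With the GC offsets Zfp335 passed in both, at 0.51 and 0.40 (edgeR adjusted p = 0.0123 and 0.0222). With them 3 no longer passed, Zfp462 in mock cells (0.55, edgeR adjusted p = 0.0651), and Zfp410 (0.26, edgeR adjusted p = 0.0871) and Zfp703 (-0.12, edgeR adjusted p = 0.548) in METTL7A1 cells. The list members Zfp42, Zfp423, Zfp521 and Zfp750, and Zfp708 of the preceding list, were below the level rule and were not tested.

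For the partners through which KRAB proteins act, 20 of 21 corepressor genes were tested. In polysomes of mock cells 13 were higher and 1 lower at an adjusted p-value below 0.05, and in METTL7A1 cells 17 and 1, with medians of 0.67 and 0.75, where 0 were called; with scaling to Actb the counts were 11 and 1 in both, and the medians 0.58 and 0.51. The KRAB-like members themselves had medians of -0.28 and -0.11. Among other families of zinc finger genes, mock polysomes had 8 of 35 Zbtb genes higher and 6 lower and METTL7A1 polysomes 5 and 8, 3 and 1 of 16 Zkscan and Zscan genes in mock cells and 7 and 0 in METTL7A1 cells, and 2 and 2 of 12 Klf genes in each. Beside these counts, 23.3% of all tested genes were higher and 23.7% lower in mock polysomes, and 30.0% and 29.3% in METTL7A1 polysomes.

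The place of a member on the gradient followed its length. Spearman's correlation of the pool change with transcript length was 0.511 in mock and 0.442 in METTL7A1 cells across the 286 members, and 0.534 and 0.522 across 12157 tested genes with an annotated transcript. With coding length it was lower among the members, 0.380 and 0.359 over 283, than among 10818 tested genes, 0.548 and 0.538, and with the number of fingers it was 0.0720 and 0.0871. These are descriptions across genes of the same libraries. The 30 members with transcripts below 2000 nt had a median change of -0.87 in mock and -0.89 in METTL7A1 cells, against -0.55 and -0.75 for all tested genes of that length, and the negative sign held with library totals (-0.47 and -0.42) and with Actb (-0.93 and -1.15). The 43 members of 6000 nt or more had medians of 0.58 and 0.61, against 0.61 and 0.71, and these stayed positive with Actb, at 0.51 and 0.38. In that longest range 21 members were higher and 0 lower in polysomes of mock cells, and 21 higher and 2 lower in those of METTL7A1 cells. Of the 1280 tested genes of that length, 53.9% rose and 2.89% fell in mock polysomes, and 60.2% and 3.67% did so in METTL7A1 polysomes. Between these ends too the members lay below all tested genes of like length. That set includes the members themselves and genes without a coding sequence. From 2000 to 3000 nt the 79 members had medians of -0.38 and -0.30, against -0.01 for all tested genes in both genotypes, from 3000 to 4000 nt the 67 members -0.05 and -0.04 against 0.21 and 0.25, and from 4000 to 6000 nt 67 members 0.06 and 0.10 against 0.36 and 0.43. By coding length the gap was as wide: the 102 members with 1500 to 2000 nt of coding sequence had medians of -0.27 and -0.13, and all tested genes of that range 0.21 and 0.29. The members' low levels stand beside this gap, and their part in it was not tested.

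**Figure D3:**
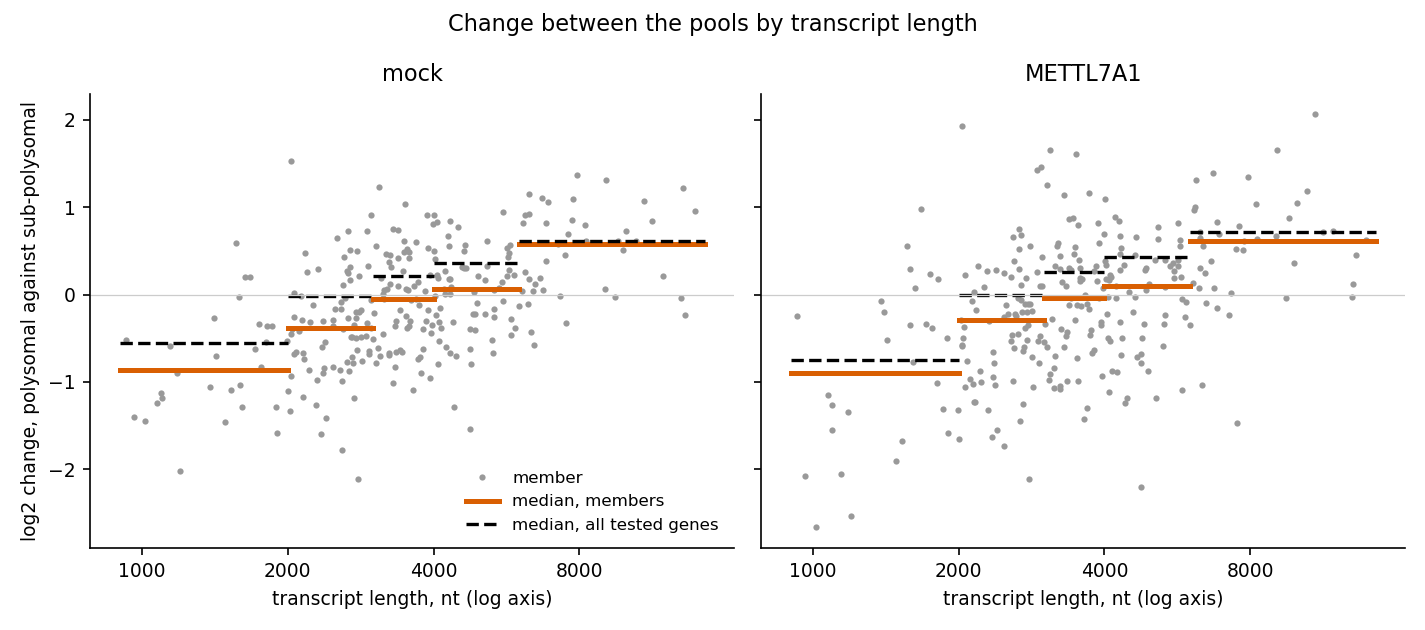
Log2 difference of polysomal minus sub-polysomal pool (vertical axis) against transcript length in nt (log axis) for each member, in mock cells and in METTL7A1 cells, with the median of members and of all tested genes in each of 5 length ranges. The medians climb with length from -0.87 to 0.58 in mock cells, and the members' medians lie under those of all tested genes in every range; the zero is that of TMM scaling.

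A KRAB-like stretch was found in 118 members. They were scarcer (median 4.55 CPM against 10.8 CPM in the 168 without it) and poorer in GC (41.5% against 49.7%). In mock cells 7 of them were higher and 20 lower in polysomes, against 30 and 30 of the members without the stretch, with medians of -0.28 and 0.03. In METTL7A1 cells the counts were 10 and 17 against 40 and 44, with medians of -0.11 and 0.07. Over all tested genes 23.3% were higher and 23.7% lower in mock polysomes, and 30.0% and 29.3% in METTL7A1 polysomes. With library totals the medians of the KRAB-like members were 0.13 and 0.35 and those of the others 0.43 and 0.54, so the sign changed and the order did not. Within coding length the order was not constant. Below 1500 nt the 34 KRAB-like members had medians of -0.48 and -0.36 and the 55 others -0.35 and -0.31. At 2000 nt or more the 37 had 0.06 and -0.03 and the 55 others 0.28 and 0.33. From 1500 to 2000 nt the 47 were lower in mock cells, -0.33 against -0.13 for 55 others, and higher in METTL7A1 cells, -0.11 against -0.23. No test of these differences was made, as the classes were compared by their medians alone.

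By rank, GC content and the pool change were weakly related: the correlation was -0.00424 across members in mock and -0.157 in METTL7A1 cells (-0.0884 and -0.280 across all tested genes). The members' medians did not rise or fall steadily with GC, however, which a rank correlation does not show. The 141 members below 45% GC had medians of -0.17 in mock and -0.04 in METTL7A1 cells, against 0.11 and 0.32 for all tested genes. From 45% to 55% the 95 members had 0.12 and 0.26, against 0.09 and 0.17. The 50 members with 55% GC or more had a median of -0.40 in mock and -0.98 in METTL7A1 cells, where 2 were higher and 30 lower below 0.05, against -0.09 and -0.43 over the 3003 tested genes of that composition, of which 13.8% were higher and 46.7% lower in METTL7A1 cells; with library totals the mock median was 0.01. With the GC offsets these medians were -0.25 and -0.21, against 0.04 and 0.05 for all tested genes of that composition. In METTL7A1 cells 9 of the 50 members were then higher and 16 lower, with no share of all tested genes set beside them.

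The second comparison asks what METTL7A1 expression changed within a pool. These are bulk samples, in which fewer cells that express a gene and less of its RNA per cell cannot be told apart. In the polysomal pool 0 members rose and 1 fell, 0.35% of the members, where 2.13% of all tested genes were called (0.982% higher, 1.15% lower). Below 0.05 there were 3 higher and 21 lower, 8.39% against 18.0% (9.69% higher, 8.28% lower); with Actb scaling these were 3 and 2. The members' median was -0.13 (all tested genes -0.01), and -0.04 with Actb scaling (all tested genes 0.08). The called member was Zfp667, which passed the level rule through mock libraries alone and so was bound to be lower, with 6, 8 and 7 counts in the mock and 1, 1 and 0 in the METTL7A1 polysomal libraries. In the sub-polysomal pool 2 rose and 1 fell, 3 in all or 1.05% against 2.76% (1.5% higher, 1.26% lower), and below 0.05 there were 25 higher and 32 lower, 19.9% against 31.4% (16.9% higher, 14.5% lower). With library totals the latter split was 15 and 49, with Actb 37 and 8, and the members' median of -0.13 (all tested genes -0.00132) was -0.28 and 0.13. The median of all tested genes was then -0.16 and 0.26. No share of all tested genes was set beside the splits of either pool under these other scalings. Marker genes moved with genotype as well: 4 of 5 epithelial markers were higher in METTL7A1 polysomes (median 0.61), and in the sub-polysomal pool Krt8 was higher, at 0.81, and Epcam lower, at -0.71. Of the leukocyte markers, Cd68 was higher in both pools, with log2 changes of 1.56 and 0.80 (edgeR adjusted p = 0.00011 and 0.0329), while Lyz2 and Cd3e stood at 0 counts. Their part in the members' changes was not tested.

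Zfp703 (chr8:26977325-26981461, plus strand), a corepressor amplified in luminal breast cancers, had the larger rise of the 2. In the sub-polysomal pool it measured 13, 8.80 and 13.2 CPM in mock and 47.7, 43.9 and 42.7 CPM in METTL7A1 cells. In the polysomal pool it measured 13, 11.5 and 10.7 and 22.4, 23.9 and 28.6 CPM. The genotypes were apart in both pools, 3.82-fold in the sub-polysomal (log2 change 1.93, SE 0.18, edgeR adjusted p = 6.62e-07) and 2.12-fold in the polysomal one (log2 change 1.09, SE 0.16, edgeR adjusted p = 8.82e-05). In mock cells Zfp703 lay evenly over the pools, with means of 11.7 CPM in both, and in METTL7A1 cells it was lower in polysomes (log2 change -0.84, SE 0.15, edgeR adjusted p = 9.75e-05). The transcript of Zfp703 has a GC content of 60.6%, and with the GC offsets the rises were 1.34 and 0.95 (edgeR adjusted p = 8.4e-05 and 0.000541), under the size limit in both, while the pool change in METTL7A1 cells was -0.12 and no longer passed 0.05.

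Zfp276 (chr8:123254195-123269745, plus strand) rose in the sub-polysomal pool, from 7.33, 5.34 and 4.73 to 18.2, 13.9 and 16.7 CPM (log2 change 1.56, SE 0.23, edgeR adjusted p = 5.03e-05). The polysomal values were 8.59, 10.2 and 10.5 CPM in mock and 11.5, 11.8 and 10.9 CPM in METTL7A1 cells (log2 change 0.23, SE 0.17, edgeR adjusted p = 0.4). The libraries of both genotypes were thus apart in each pool, widely in the sub-polysomal and narrowly in the polysomal one, where the test was not passed. With GC offsets its sub-polysomal change was 1.09 (edgeR adjusted p = 0.00159). The call in the other direction was Zfp963, with a mean of 1.64 CPM and a change of -2.12, below the level set for naming members and with 40.4% of its windows in other genes.

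In both pools 11 members passed 0.05 with 1 direction and 0 with opposite ones, 3.85% of the members against 11.7% of all tested genes (6.16% higher, 5.57% lower) with 1 direction. Higher in METTL7A1 cells were Zfp703, Zfp979 (1.28 in the polysomal and 1.29 in the sub-polysomal pool) and Zfp263 (0.57 and 0.51). Lower were Zfp362 (-1.32 and -0.74), Zfp39, Zfp125, Zfp146, Zfp410, Zfp110, Zfp422 and Zfp277. These 11 were named because they passed in both pools, after their values were seen, and with the GC offsets 8 of them did so. Zfp146 had log2 changes of -0.65 (SE 0.17, edgeR adjusted p = 0.011) among polysomes and -1.05 (SE 0.25, edgeR adjusted p = 0.0032) among sub-polysomal RNA, with no overlap of the libraries in either. Zfp410 had -0.50 (SE 0.14, edgeR adjusted p = 0.0161) and -0.77 (SE 0.15, edgeR adjusted p = 0.000805). Chd4, the gene its protein activates, had -0.10 and -0.65 in the same pools (edgeR adjusted p = 0.722 and 0.0121).

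Of the members with a known role, Zfp593 and Zfp598, both lower in polysomes, were higher in the sub-polysomal pool of METTL7A1 cells, with log2 changes of 0.98 (SE 0.15, edgeR adjusted p = 0.000149) and 0.46 (SE 0.15, edgeR adjusted p = 0.0304); with GC offsets Zfp593 had 0.60 and Zfp598 -0.08 (edgeR adjusted p = 0.00172 and 0.72). Zfp36 was higher there, 0.68 (SE 0.24, edgeR adjusted p = 0.0402), and had 0.67 (SE 0.27, edgeR adjusted p = 0.0855) in the polysomal pool. Zfp335 was higher in the sub-polysomal pool by 0.67 (SE 0.19, edgeR adjusted p = 0.0106). With the GC offsets neither passed, Zfp36 at 0.49 and Zfp335 at 0.14 (edgeR adjusted p = 0.106 and 0.57). Lower in the sub-polysomal pool, by their log2 changes, were Zfp326 with -0.84 (SE 0.18, edgeR adjusted p = 0.00205), Zfp445 with -0.62 (SE 0.20, edgeR adjusted p = 0.0278), Zfp961 with -0.65 (SE 0.22, edgeR adjusted p = 0.0336), Zfp91 with -0.45 (SE 0.14, edgeR adjusted p = 0.024), Zfp143 with -0.57 (SE 0.21, edgeR adjusted p = 0.0449), and Zfp638 with -0.59 (SE 0.22, edgeR adjusted p = 0.0454). Of these 6, Zfp326 alone still passed with the GC offsets (-0.57, edgeR adjusted p = 0.00711). The others then had log2 changes between -0.41 and -0.26 and adjusted p-values between 0.156 and 0.182. In the polysomal pool Zfp346 was lower, with -0.51 (SE 0.17, edgeR adjusted p = 0.0419). Of the 20 corepressor genes 0 were higher and 7 lower in the sub-polysomal pool and 0 and 4 in the polysomal pool, which became 2 and 3, and 1 and 1, with Actb scaling. Without that scaling 16.9% of all tested genes were higher and 14.5% lower in the sub-polysomal pool, and 9.69% and 8.28% in the polysomal pool.

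Genotype changes among sub-polysomal RNA followed GC content. Spearman's correlation with GC was 0.352 across the 286 members (0.402 across 12157 tested genes) in the sub-polysomal and 0.182 (0.127) in the polysomal pool. The 141 members below 45% GC had a sub-polysomal median of -0.34, the 95 from 45% to 55% one of -0.17 and the 50 above it 0.41, where all tested genes had -0.23, -0.09 and 0.44; in the GC-rich range 19 members were higher and 3 lower in METTL7A1 cells, against 39.1% and 4.26% of the 3003 tested genes. With the GC offsets the 3 medians were -0.14, -0.08 and -0.09, the correlation was 0.0291, and 0 members were called. The offsets are fitted to each library's trend with GC over the tested genes. They take that trend out by construction, whatever its source, so the loss of the correlation is not a result. The KRAB-like members, which are poor in GC, had a sub-polysomal median of -0.27 and the others -0.04, and with the offsets -0.10 and -0.12.

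**Figure D4:**
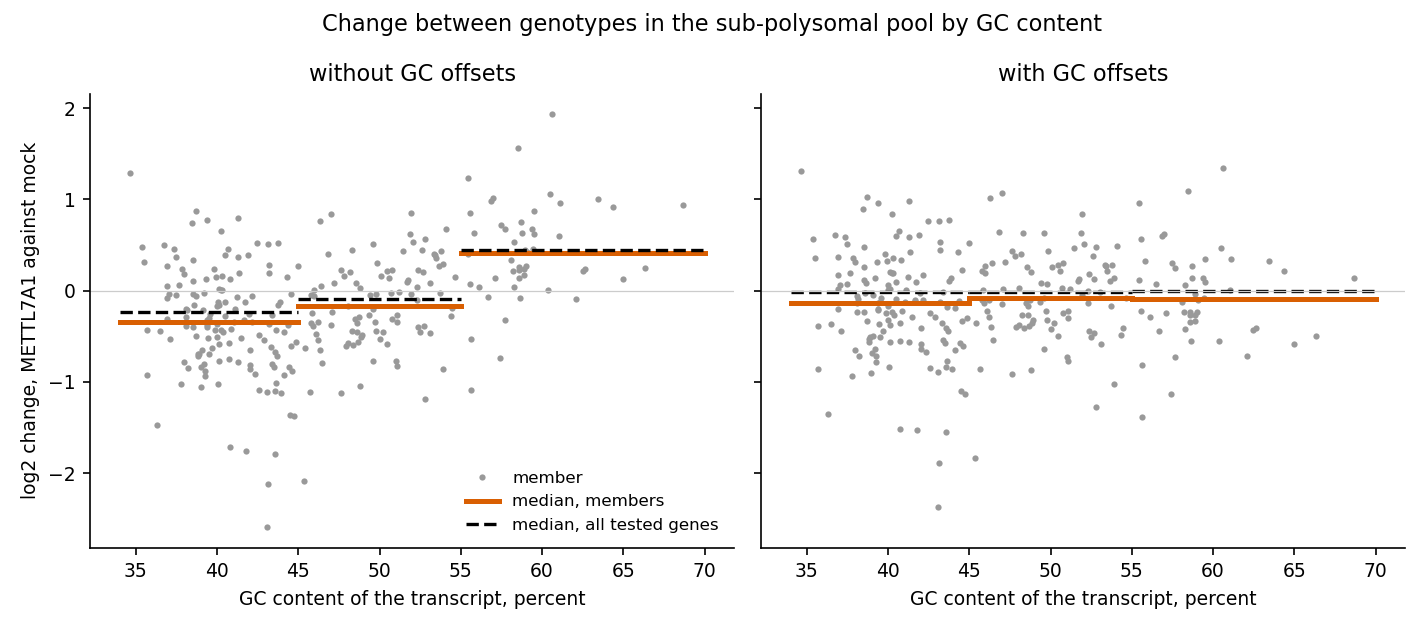
Log2 change from mock to METTL7A1 cells in the sub-polysomal pool (vertical axis) against the GC content of the transcript in percent, 1 point per member, as fitted with TMM alone and with offsets for GC content, with the medians of 3 GC ranges. The medians run from -0.34 at low to 0.41 at high GC without the offsets and lie between -0.14 and -0.08 with them; Zfp703 at 60.6% GC moves from 1.93 to 1.34.

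The third comparison asks whether METTL7A1 moved a member between the pools, as the difference of its pool change between the genotypes. By edgeR 0 members were called and 0 passed an adjusted p-value of 0.05, as was so for 0.0% of all tested genes, and the smallest adjusted p of a member was 0.114. At an unadjusted p-value below 0.05 there were 29 members or 10.1%, 8 towards and 21 away from polysomes in METTL7A1 cells, where 15.6% of all tested genes (1912) had such a value. At an adjusted p-value below 0.05 DESeq2 gave 3 members and limma-voom 0, with no share of all tested genes by these methods set beside them. With the smallest p towards polysomes came Zfp326: its sub-polysomal libraries went from 58.1, 37.7 and 59.1 CPM in mock to 23.8, 28.8 and 33.2 CPM in METTL7A1 cells. The polysomal ones measured 45.1, 47.1 and 35.9 and 49.8, 47.2 and 47.9 CPM. The polysomal values were thus close in both genotypes, and the difference of 1.02 ± 0.25 on the log2 scale (± SE, edgeR adjusted p = 0.114) came with the lower sub-polysomal values in METTL7A1 cells, in which no library reached the lowest of mock cells. Zfp330 (log2 change 0.78, SE 0.20, edgeR adjusted p = 0.114) and Zfp830 (log2 change 0.68, SE 0.26, edgeR adjusted p = 0.211) followed. Away from polysomes came Zfp276 (log2 change -1.34, SE 0.28, edgeR adjusted p = 0.114), Zfp593 (log2 change -0.79, SE 0.22, edgeR adjusted p = 0.129) and Zfp444 (log2 change -0.95, SE 0.26, edgeR adjusted p = 0.129), each higher in the sub-polysomal pool of METTL7A1 cells. The shift ran against GC content, with a correlation of -0.277 across members and -0.426 across all tested genes. With the offsets, which take such a trend out by construction, it was 0.0103 across members. With them Zfp326 had 0.82, Zfp276 -0.96 and Zfp593 -0.49, while Zfp444 at -0.93 hardly moved.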

How the data were processed

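The authors deposited raw counts per gene of the 12 libraries, which were prepared with a stranded kit after rRNA depletion. According to the submitters' processing notes, bcl2fastq 2.20.0.422, STAR 2.5.3a, featureCounts and R 3.5.1 were used with the GRCm38 and mm10 builds. The strand setting of the counting and its treatment of reads that match several genes are not given in the sources used here, so near-identical and overlapping genes may share counts. SEs cover the spread between libraries in the fit, and limits on low values counting error, and nothing else.

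Genes with at least 1 CPM (count divided by the library total) in at least 3 libraries were kept. TMM factors scaled the libraries, and group means were fitted by the quasi-likelihood method of edgeR 4.0.16 in R 4.3.3, 1 for each of the 4 groups, with SEs from the same fit. P-values were adjusted over all 12224 genes by the Benjamini-Hochberg method. The fit was tested on simulated counts. Length, GC content and coding sequences came from 1 transcript per gene of GENCODE M21 (GRCm38), chosen by complete coding sequence, APPRIS rank, transcript support and length. Fingers and KRAB-like stretches were found as patterns in the translated coding sequence, the latter with a pattern widened after the data were seen.

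Members, role lists, corepressors, markers and comparison families were chosen with earlier results of these data known. Named were list members with a mean of at least 5 CPM, up to 5 called rises and 5 called falls per comparison with a mean of at least 2 CPM, the 3 smallest p-values in each direction of the shift, the 5 highest levels and the 3 members either side of the threshold. Other members are named as a group, or singled out after their values were seen. Alternatives were DESeq2 1.42.0, RLE factors, limma-voom (limma 3.58.1), library totals, Actb scaling, other filters, the replicate letter as a block, GC offsets (lowess with a span of 0.3), only the groups compared, another threshold and leaving out each library. Chosen after seeing the data were the counts at an adjusted p-value below 0.05 under each of these, and the fits without members that passed in 1 pool or genotype or that shared over 20% of their windows.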

Additional observations from a re-analysis of the deposited data

How the results depend on the processing

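Under library totals the members' median pool change was 0.27 in mock and 0.41 in METTL7A1 cells, and under Actb scaling it was -0.30 in METTL7A1 cells, while the sub-polysomal genotype median was 0.13 and 5 members (3 higher, 2 lower) passed 0.05 in the polysomal genotype comparison. There, 0 members were called with DESeq2, with no filter beyond 1 count in total, with at least 10 counts in every library, with a mean of at least 1 CPM, with only the groups compared and without the members that passed in 1 pool or genotype, the last chosen after seeing the data. With GC offsets 0 members were called and 32 (13 higher, 19 lower) passed 0.05 in the sub-polysomal genotype comparison. For the shift, 3 passed 0.05 with DESeq2 and 3 with no filter, with no share of all tested genes set beside them. The cause of these moves was not tested. With the threshold of 0.05 and no limit on size the calls were 87, 111, 24 and 57 in the 2 pool and the polysomal and sub-polysomal genotype comparisons. Leaving out 1 library gave 3 to 11 calls in mock pools (3 without mock polysomal A, 11 without B), 14 to 17 in METTL7A1 pools, 0 to 1 among polysomal (0 without any of the 6 polysomal libraries) and 2 to 3 among sub-polysomal genotype comparisons. The counts below 0.05 were then 60 to 90, 90 to 116, 7 to 29 (8 without mock polysomal B, 7 without METTL7A1 polysomal D or E, 12 without F), 31 to 63 (36 without mock sub-polysomal C, 33 without METTL7A1 sub-polysomal D, 31 without E) and, for the shift, 0 to 6 (6 without mock polysomal A). The medians ran from -0.25 to -0.01, -0.11 to 0.023 (0.023 without METTL7A1 sub-polysomal F), -0.19 to -0.04, -0.26 to -0.05 and, for the shift, -0.08 to 0.13. The letters A to F link pools in the labels, but deviations of libraries with 1 letter correlated between -0.292 and 0.107, so they were not taken as pairs. With the replicate block 6, 15 and 0 members were called for the pools and the shift and 74, 103 and 0 passed 0.05, and the genotype comparisons could not be fitted with it. For the members named by the rules for calls and the shift, 516 values were computed under the alternatives, leaving out other called members. Of these, 484 kept direction and side of the threshold and 0 reversed. The other 32 kept the direction and lost the call (Zfp146, Zfp691, Zfp787 and Zfp560 in mock pools, Zfp106 and Zfp931 in METTL7A1 pools, Zfp703 and Zfp276 between genotypes). The shift values were not called in the main fit and so had no call to lose. Each was computed under 23 alternatives and all counted as kept. For the called changes alone the share kept was therefore lower. Among changes named at 0.05 alone, GC offsets turned the sign of Zfp276 in METTL7A1 pools (-0.50 to 0.0089) and of Zfp598 between genotypes in the sub-polysomal pool (0.46 to -0.08). One library decided some of these calls: mock sub-polysomal B for Zfp146, Zfp691 and Zfp787 (1.44, -1.32 and -1.25 without it), mock sub-polysomal C for Zfp146 (1.31) and Zfp276 (1.4), mock polysomal A for Zfp691, Zfp787 and Zfp560 (-1.34, -1.46 and -1.4), mock polysomal C for Zfp146 and Zfp691 (1.47 and -1.46), METTL7A1 sub-polysomal F and polysomal D and E for Zfp931 (-1.5, -1.76 and -1.94), and METTL7A1 sub-polysomal D for Zfp276 (1.48). Low counts limit the members below 2 CPM, where 3 counts are up to 1.65 CPM.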
